A study of Mus musculus with 4 samples.

Results

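Heat shock proteins, chaperonins and co-chaperones fold newly made proteins and refold damaged ones. The HSP70 proteins bind unfolded chains, HSP40 (DnaJ) proteins deliver clients to them, HSP90 proteins finish the folding of kinases and receptors, and the CCT ring encloses actin and tubulin. Some members are made at all times, while others are induced by heat shock factor 1 when unfolded protein builds up. Haematopoietic stem cells are known for a low rate of protein synthesis and for sensitivity to misfolded protein.

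The 44 listed genes were matched to probe sets of the Affymetrix array whose annotation gives exactly 1 gene symbol, and the brightest probe set stood for each gene. This gave values for 41 members among 18193 genes. Hsp90ab1, Ptges3 and Hsf1 had no such probe set and are not analysed here. The members were split by role and compartment into cytosolic HSP70 and HSP110, cytosolic HSP90, cytosolic HSP40, CCT, mitochondrial and endoplasmic reticulum (ER) chaperones, the small heat shock protein Hspb1, co-chaperones of HSP70, co-chaperones of HSP90, and heat shock factors.

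The cells were mouse haematopoietic stem cells sorted as KLS CD48- CD150+ from adult mice, 2 weeks after recombination was started with tamoxifen. The 2 Rb family deficient pools carry the genotype Rb -/- p130 -/- p107-/-, and the 2 wild type pools the genotype Rb +/+ p130 +/+ p107-/-. Both groups therefore lacked p107 by label, and the labelled difference between them was in Rb and p130. Each pool came from 3 mice. The driver of the recombinase is not given in the sources used here, and nothing states whether a mouse entered more than 1 pool, so the p-values measure the spread between these 4 pools only.

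Over all genes the arrays correlated at a Pearson's r of 0.983 to 0.990, a value across genes, which are not independent replicates. The sort marker Slamf1 (CD150) lay between 8.81 and 9.90 on the log2 scale, Kit between 9.94 and 11.09 and Cd48 between 5.84 and 7.09. Of the targeted genes, Rbl2 (p130) gave 7.82 and 8.21 (deficient) and 8.94 and 8.75 (wild type), and Rb1 at 9.82 and 9.72 against 9.37 and 9.58. Rbl1 (p107), lost by label in all pools, gave 5.35 and 5.42 (deficient) and 5.92 and 6.77 (wild type). Where these probe sets lie relative to the deleted parts is not given, so they do not check the labels. The Y-linked gene Kdm5d gave 6.12 and 7.86 (deficient) and 8.26 and 8.37 (wild type), so the pools also differed in this sex-linked transcript, and its part in the results was not tested. In pools of cells, fewer cells of a type and less RNA per cell cannot be told apart.

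Promoter sequences are shown first for the inducible HSP70 genes, because their values differed most between the pools. RefSeq (GRCm38.p6) lists Hspa1b and Hspa1a as neighbouring protein-coding genes on the same strand. The 250 bases before their starts differed at 3 positions and were identical at 247. Each held 1 exact match to a pair of inverted heat shock factor units, GAANNTTC, which is printed in capitals (both genes on the minus strand, Hspa1a at chr17:34972157-34972406 and Hspa1b at chr17:34959239-34959488). Only exact letters were searched, here and below, so units with a mismatch, also any beside this pair, are not marked or counted.
Hspa1a: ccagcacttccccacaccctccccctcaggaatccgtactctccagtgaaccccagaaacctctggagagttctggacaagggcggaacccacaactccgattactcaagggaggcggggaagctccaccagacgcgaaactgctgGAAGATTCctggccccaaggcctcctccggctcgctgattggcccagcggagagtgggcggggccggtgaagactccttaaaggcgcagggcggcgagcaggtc
Hspa1b: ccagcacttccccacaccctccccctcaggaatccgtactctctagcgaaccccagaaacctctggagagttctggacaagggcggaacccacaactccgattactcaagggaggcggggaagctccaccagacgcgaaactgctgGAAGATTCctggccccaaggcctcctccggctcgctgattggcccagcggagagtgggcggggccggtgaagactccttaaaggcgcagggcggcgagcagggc

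A run of 3 inverted units, the classical heat shock element, was searched as GAA, TTC and GAA with any 2 bases between neighbours, on both strands of windows from 250 bases before to 50 after each start. It was present for 5 of the 37 members that have such a window (13.5%), against 0.662% of all 27025 genes with a window and 0.603% of the 32851 windows. Those members were Chordc1, Dnajb6, Hspd1, Hspe1 and Hsph1. Hspd1 and Hspe1 are neighbours on opposite strands, and their windows share 285 bases, with the same element in the shared stretch. The elements are printed with overlapping matches joined in capitals, at chr9:18292260-18292289 (plus strand) for Chordc1, chr5:29735844-29735873 (plus) for Dnajb6, chr1:55088053-55088082 (plus) for Hspe1 and chr5:149636287-149636316 (minus) for Hsph1.
Chordc1: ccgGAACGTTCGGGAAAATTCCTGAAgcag
Dnajb6: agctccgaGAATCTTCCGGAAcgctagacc
Hspe1: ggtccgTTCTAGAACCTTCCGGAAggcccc
Hsph1: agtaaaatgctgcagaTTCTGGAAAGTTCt

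Runs of 2 units (GAANNTTC or TTCNNGAA), which include every 3-unit run, were in the windows of 16 of the 37 members (43.2%), against 17.0% of genes and 15.1% of windows. The ER stress response element, CCAAT and CCACG with any 9 bases between them (both strands), was found for 3 members, all ER chaperones (Hspa5, Hsp90b1 and Dnajc3), or 8.11% of the 37, against 0.137% of genes and 0.119% of windows. These sites lie at chr2:34772020-34772049 (plus strand) for Hspa5, chr10:86705632-86705661 and chr10:86705527-86705556 (minus) for the first and second site of Hsp90b1, and chr14:118937822-118937851 (plus) for Dnajc3, with the element in capitals.
Hspa5: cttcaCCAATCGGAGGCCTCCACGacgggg
Hsp90b1, first site: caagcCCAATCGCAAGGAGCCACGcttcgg
Hsp90b1, second site: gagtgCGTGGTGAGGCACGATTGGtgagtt
Dnajc3: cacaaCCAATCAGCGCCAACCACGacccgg

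Because the retinoblastoma family restrains E2F factors, the E2F site (TTTCCCGC, TTTCGCGC, TTTGCCGC or TTTGGCGC, both strands) was searched too. Of the 37 members, 2 CCT genes held it (5.41%), against 2.605% of genes and 2.265% of windows. The matches lie at chr17:12916260-12916289 (plus strand) for Tcp1 and chr3:88296900-88296929 (plus) for Cct3. A match is a description of the letters and not evidence of binding.
Tcp1: ccgttttccacTTTCGCGCctttcttctac
Cct3: actgcccgtgcTTTGGCGCttgcgcagaca

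Most chaperone genes had lower values in the Rb family deficient pools. Of the 41 members, 37 had a log2 difference below 0 (deficient minus wild type), with a median of -0.29, or 1.22-fold lower. Over all 18193 genes 50.8% were below 0, with a median of -0.00376. The members were bright, 39 of them among the 9097 genes at or above the median brightness over genes. Of those 9097 genes 63.6% were below 0, with a median of -0.088. They were still dimmer than the members, with mean log2 levels of 9.14 to 9.27 over the pools against 10.73 to 11.24. The 9097 genes are therefore not a background matched in brightness. Without Hspa1a and Hspa1b the members' median was -0.26, with 35 of 39 below 0.

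No member passed limma's threshold, an adjusted p under 0.05 over all genes, which 0 of 18193 genes passed (0%). At an unadjusted p under 0.05, limma gave 7 members lower (17.1%), against 4.04% of all genes and 6.06% of the 9097 brighter genes, and 0 higher, against 2.19% of all genes. When the brighter genes were fitted alone, 6 of their 39 members were lower, against 4.48% of those genes. The 7 were Cacybp, Fkbp4, Cdc37, Hspd1, Stip1, Hspa1b and Hspa1a. Without wild type pool 1, a single member was lower (2.44%), against 3.29% of all genes and 4.08% of the brighter ones, so the members no longer exceeded the background. Leaving out another pool gave 3 members (7.32%, all genes 1.74%) for deficient pool 1, 4 (9.76%, all genes 3.90%) for deficient pool 2 and 11 (26.8%, all genes 5.95%) for wild type pool 2. With each array centred on its median, 5 members were lower and 0 higher, while all genes split into 530 lower and 601 higher, against 735 and 399 in the deposited values.

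Both deficient pools lay below both wild type pools for 29 members (70.7%), against 18.5% of all genes and 26.5% of the 9097 brighter genes. Dnajb1 was the 1 member with both deficient pools above, against 17% of all genes, and 11 members overlapped between groups. The difference was larger than the gap between pools in either group for 18 members (43.9%), against 23.3% of all genes and 23.6% of the brighter genes. The pools were uneven. Wild type pool 1 held the highest value for 28 members (68.3%), against 26.0% of all genes, and wild type pool 2 for 8. The lowest value fell in deficient pool 2 for 21 members and in deficient pool 1 for 16. Wild type pool 1 exceeded wild type pool 2 by a median of 0.21 over the members, while the median over all genes was -0.032.

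**Figure D1:**
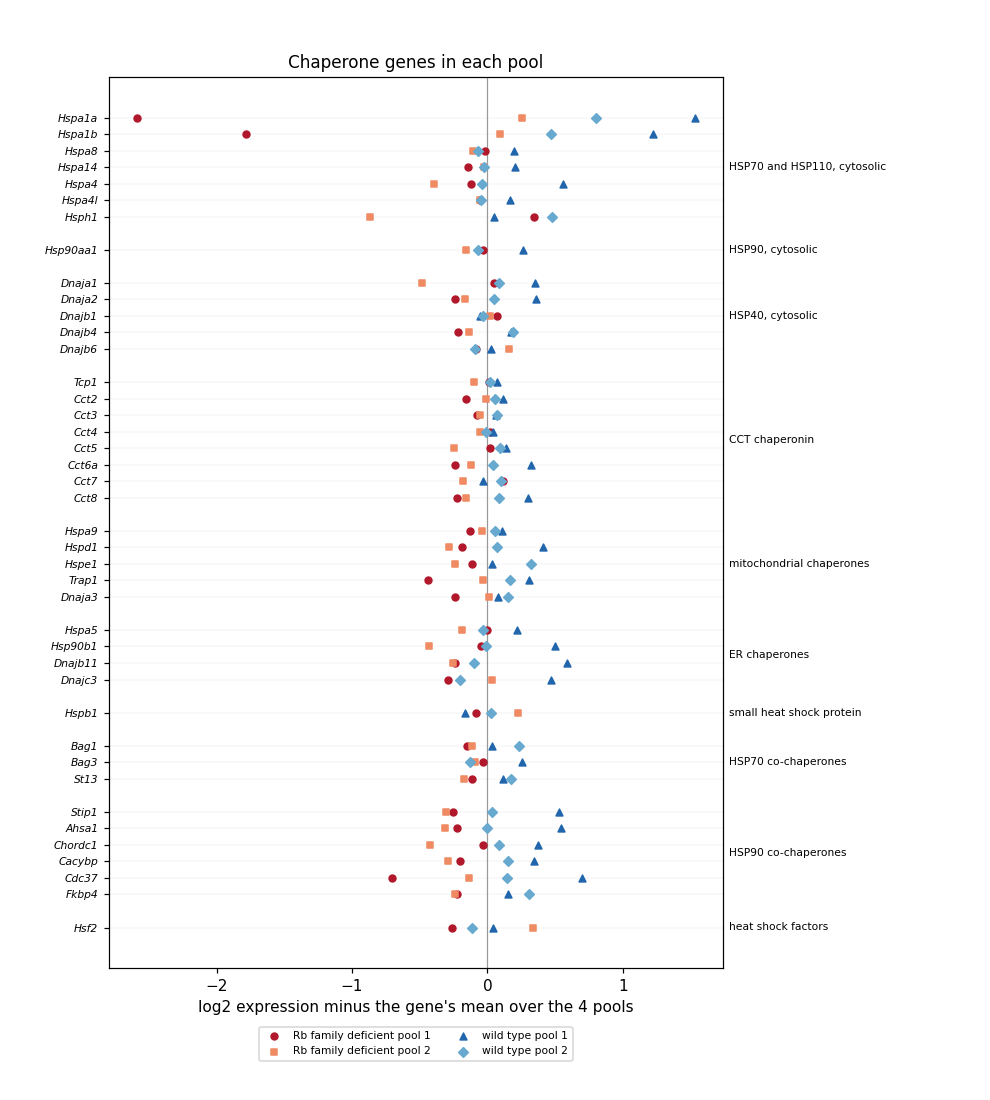
Each row is 1 of 41 chaperone genes, grouped by role, and each symbol its log2 expression in 1 pool minus the gene's mean over the 4 pools. Wild type pool 1 (triangles) stands highest in 28 rows, and Hspa1a and Hspa1b have the widest spread, with deficient pool 1 (red circles) far to the left.

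The sign did not rest on 1 pair of pools. Deficient pool 1 minus wild type pool 1 had a median of -0.30 over the members, with 37 below 0, and deficient pool 2 minus wild type pool 1 a median of -0.39, with 37 below 0. Against wild type pool 2, the medians were smaller, -0.15 for deficient pool 1 (33 below 0) and -0.21 for deficient pool 2 (35 below 0). These 4 differences share pools and are not independent.

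The widest differences belonged to the stress-inducible HSP70 genes. Hspa1a, an HSP70 that is made on heat or proteotoxic stress, gave log2 levels of 6.75 and 9.60 (deficient) and 10.87 and 10.14 (wild type). Here and for the other genes, pool 1 of each group is given before pool 2, on the log2 scale of the array. Both deficient pools were below both wild type pools, and deficient pool 1 was far below the other 3. The log2 difference was -2.33 (limma, SE 0.92 over 2 pools a group, adjusted p = 0.793), or 5.04-fold lower, which ranked 1 from the lowest among 18193 genes. Without deficient pool 1 it was -0.91, and its rank was 111, so the size of the difference rested on that pool. The gap of 2.85 between the deficient pools was the ninth largest (rank 9) of all genes.

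Hspa1b, the second inducible HSP70 gene, gave 9.50 and 11.37 (deficient) and 12.51 and 11.76 (wild type). The pools took the same order as for Hspa1a. The difference was -1.69 (SE 0.64, limma adjusted p = 0.786), or 3.24-fold lower, and -0.76 without deficient pool 1. Its other probe sets differed by -2.10 (SE 0.88) and -2.40 (SE 1.12), and in the dimmest of them deficient pool 2 (8.87) lay just above wild type pool 2 (8.81). The transcripts of the pair are nearly alike and may cross-hybridise, so these 4 probe sets are not separate evidence on 2 genes.

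**Figure D2:**
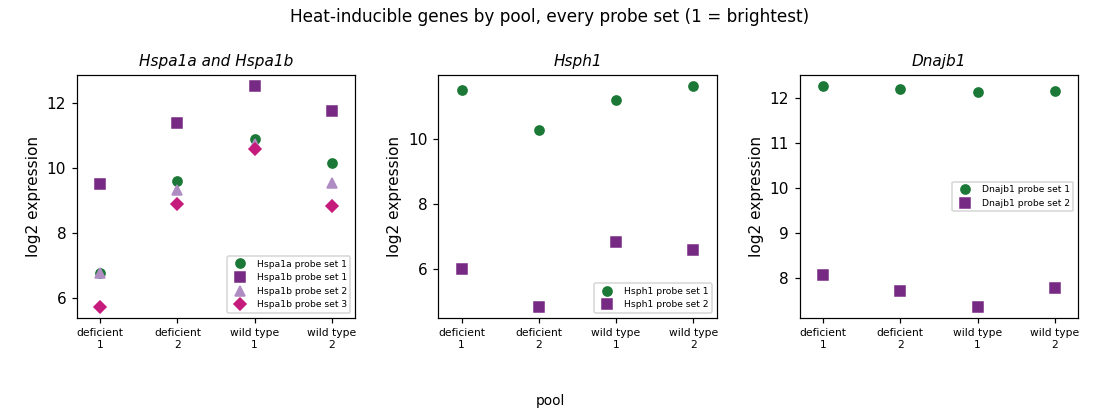
Log2 expression in each pool (horizontal axis) for every probe set of Hspa1a and Hspa1b, Hsph1 and Dnajb1, numbered from the brightest. The 4 probe sets of Hspa1a and Hspa1b are all lowest in deficient pool 1 and highest in wild type pool 1, Hsph1 is lowest in deficient pool 2, and the brighter Dnajb1 probe set is nearly level.

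The other HSP70 and HSP110 genes showed smaller differences. Hspa8, the constitutive HSP70 of the cytosol, gave 13.94 and 13.86 (deficient) and 14.15 and 13.89 (wild type). The groups overlapped, and the difference was -0.12 (SE 0.16), or 0.00722 without wild type pool 1. Its 3 dimmer probe sets differed by -0.26 to -0.41. Hspa14, a ribosome-associated HSP70, differed by -0.17 (SE 0.16), and by 0.12 when its 3 probe sets were averaged.

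The HSP110 proteins are nucleotide exchange factors of HSP70. Hspa4 gave 11.47 and 11.19 (deficient) and 12.15 and 11.55 (wild type), differing by -0.52 (limma, SE 0.25, adjusted p = 0.806), or -0.22 without wild type pool 1. The groups did not overlap, and wild type pool 1 was the high sample. In the next brightest probe set of Hspa4 the groups overlapped, with a difference of -0.055 (SE 0.16). The dimmest probe sets differed by 0.17 and -0.71, and the mean of all its probe sets by -0.28. Hsph1, the heat-inducible HSP110, gave 11.51 and 10.30 (deficient) against 11.22 and 11.64 (wild type). Here deficient pool 2 was the low sample and deficient pool 1 lay between the wild type pools, the reverse of the order of the deficient pools in Hspa1a. The difference was -0.52 (SE 0.42), or 0.083 without deficient pool 2 and -1.13 without deficient pool 1. In its second, dim probe set both deficient pools (5.98 and 4.82) were below both wild type pools (6.83 and 6.59). Hspa4l differed by -0.12 (SE 0.15), and by 0.00386 when its probe sets were averaged. The 7 genes together had a median of -0.52, the value of Hspa4, with 7 of 7 below 0. With probe sets averaged the median was -0.29. Leaving out a pool gave -0.66 (deficient pool 1), -0.23 (deficient pool 2), -0.22 (wild type pool 1) or -0.31 (wild type pool 2).

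Hsp90aa1, the stress-inducible cytosolic HSP90, was the 1 measured member of its group. It gave 13.33 and 13.20 (deficient) and 13.62 and 13.28 (wild type). Deficient pool 1 lay above wild type pool 2, so the groups overlapped. The difference was -0.19 (SE 0.18), and -0.021 without wild type pool 1. In the next brightest probe set the groups were 0.00119 apart (SE 0.23).

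The cytosolic HSP40 genes, which encode DnaJ partners of HSP70, went both ways. Dnaja1 gave 12.15 and 11.62 (deficient) and 12.46 and 12.19 (wild type), differing by -0.44 (limma, SE 0.23, adjusted p = 0.816), and its other 2 probe sets were also lower, by up to -0.67. Without deficient pool 2, Dnaja1 differed by -0.17. Dnaja2 gave 11.24 and 11.32 (deficient) against 11.84 and 11.53 (wild type), differing by -0.41 (SE 0.17), with 4 of 4 probe sets below 0, and by -0.25 without wild type pool 1. Dnajb4 gave 9.87 and 9.95 (deficient) against 10.26 and 10.27 (wild type), with little spread within groups, differing by -0.36 (limma, SE 0.14, adjusted p = 0.793). With the mean of its 3 probe sets Dnajb4 differed by -0.080.

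Dnajb1, the principal heat-induced HSP40, did not follow the inducible HSP70 genes. It gave 12.26 and 12.21 (deficient) and 12.13 and 12.15 (wild type), differing by 0.092 (limma, SE 0.14, adjusted p = 0.934). The 4 pools lay within a narrow range. Dnajb6, which suppresses protein aggregation, differed by 0.072 (SE 0.16), but its 3 dimmer probe sets were below 0, down to -0.59, and the mean of its probe sets differed by -0.30. The median of the 5 HSP40 genes was -0.36, with 3 of 5 below 0, and it was -0.17 without deficient pool 2.

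The CCT chaperonin, a ring of 8 different subunits, showed small differences of 1 sign. All 8 genes were below 0, with a median of -0.15 and a range from -0.38 to -0.032. With arrays centred on their median, Cct4 turned to 0.023 and the group's median was -0.10. The brighter genes, with a median of -0.088, are not matched to this group in brightness. Their mean log2 levels were 9.14 to 9.27 over the pools, against 12.44 to 12.68 for the CCT genes. Cct8 gave 10.89 and 10.95 (deficient) and 11.41 and 11.20 (wild type), differing by -0.38 (limma, SE 0.15, adjusted p = 0.795). Cct6a gave 12.42 and 12.54 (deficient) against 12.98 and 12.70 (wild type), differing by -0.36 (SE 0.17). In both genes the groups did not overlap, and wild type pool 1 was highest.

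The other CCT subunits differed by less. Cct5 differed by -0.23 (SE 0.16), Cct2 by -0.17 (SE 0.15), Cct3 by -0.13 (SE 0.14), Tcp1 by -0.090 (SE 0.14), Cct7 by -0.069 (SE 0.17) and Cct4 by -0.032 (SE 0.14). For 6 of 8 subunits both deficient pools were below both wild type pools, against 18.5% of all genes and 26.5% of the brighter ones. Cct4 and Cct7 overlapped. Without deficient pool 2, Cct7 differed by 0.081 and Cct4 by 0.00558. The second, dim probe set of Cct8 differed by 0.17.

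All 5 mitochondrial chaperones had both deficient pools below both wild type pools, against 18.5% of all genes and 26.5% of the brighter ones. Hspd1 (HSP60), the barrel of the mitochondrial chaperonin, gave 12.62 and 12.53 (deficient) and 13.22 and 12.89 (wild type), differing by -0.48 (limma, SE 0.18, adjusted p = 0.783), or 1.39-fold lower, and by -0.31 without wild type pool 1. Hspe1 (HSP10), the lid of the same chaperonin and its neighbour across the shared promoter, gave 11.75 and 11.62 (deficient) against 11.90 and 12.18 (wild type), differing by -0.36 (limma, SE 0.17, adjusted p = 0.806), or -0.21 without wild type pool 2. Wild type pool 1 was the higher wild type pool for Hspd1 and the lower for Hspe1.

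Trap1, the mitochondrial HSP90, gave 9.19 and 9.59 (deficient) and 9.93 and 9.80 (wild type), differing by -0.47 (limma, SE 0.19, adjusted p = 0.794), and its second probe set differed by -0.57. Without deficient pool 1, Trap1 differed by -0.27. Hspa9 (mortalin), the HSP70 that pulls proteins into mitochondria, differed by -0.17 (SE 0.14), with 2 of its 5 probe sets below 0. Dnaja3, its DnaJ partner, differed by -0.23 (SE 0.16), and by 0.44 in the dimmer probe set without an _a_at name. The median of the 5 genes was -0.36, and -0.21 without wild type pool 2.

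The ER chaperones were set apart by wild type pool 1. Hspa5 (BiP), the HSP70 of the ER, gave 12.88 and 12.70 (deficient) and 13.10 and 12.85 (wild type). The groups overlapped, with a difference of -0.19 (SE 0.17). Hsp90b1 (GRP94), the HSP90 of the ER, gave 11.66 and 11.28 (deficient) against 12.21 and 11.70 (wild type), differing by -0.48 (limma, SE 0.24, adjusted p = 0.813), or -0.23 without wild type pool 1. Dnajb11, a DnaJ partner of BiP, gave 8.76 and 8.75 (deficient) against 9.59 and 8.90 (wild type), differing by -0.49 (SE 0.25), or -0.14 without wild type pool 1, which was the sample apart.

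Dnajc3, an ER DnaJ protein that is also known as an inhibitor of the kinase PERK, gave 9.22 and 9.55 (deficient) and 9.98 and 9.31 (wild type). The groups overlapped, and the difference was -0.26 (SE 0.27), or 0.073 without wild type pool 1. The median of the 4 ER genes was -0.37, with 4 of 4 below 0. It was -0.10 without wild type pool 1 and -0.67 without wild type pool 2, so its size rested mainly on wild type pool 1.

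**Figure D3:**
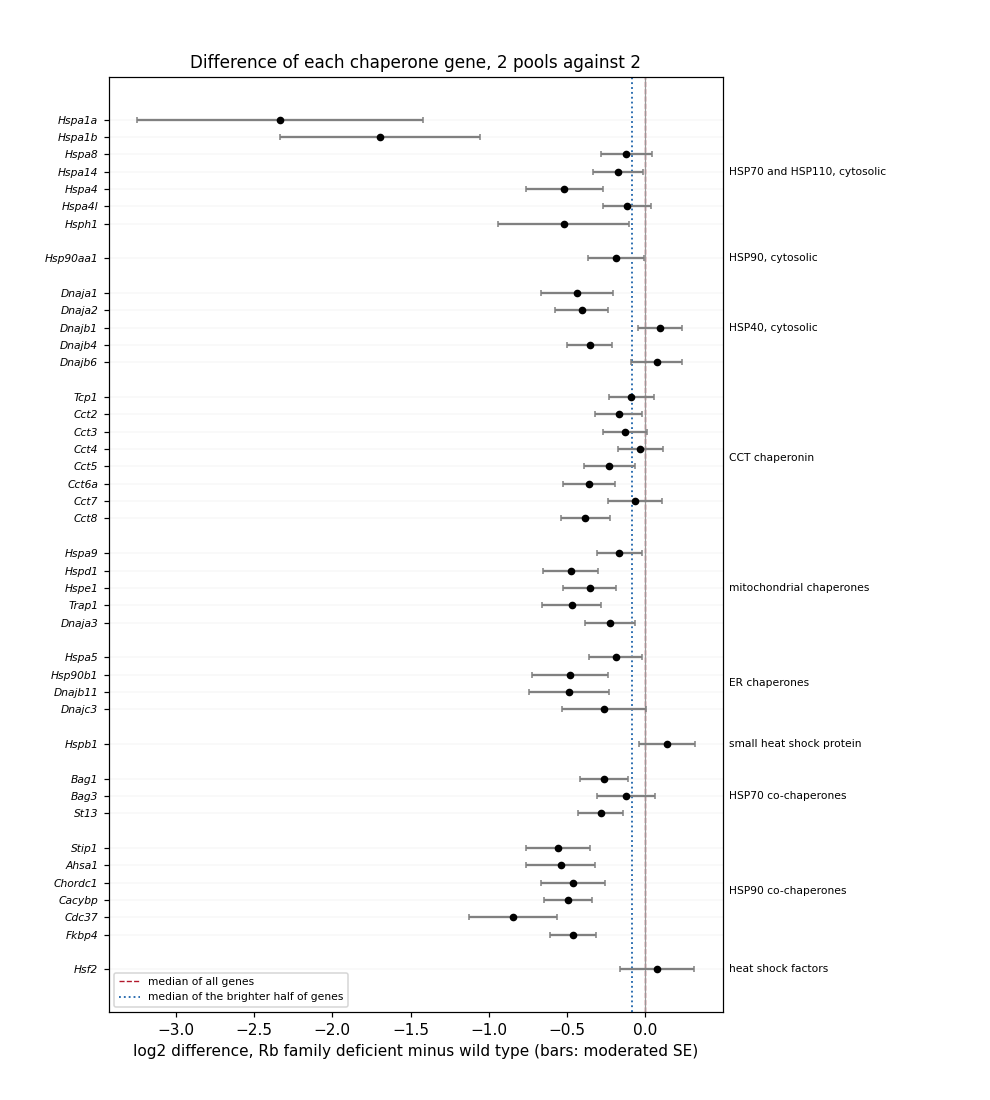
Log2 difference of each of 41 chaperone genes, Rb family deficient minus wild type, with the moderated standard error as the bar (2 pools per group). The dashed line marks the median of all genes (-0.00376) and the dotted line that of the 9097 brighter genes (-0.088); 37 genes lie below 0, and Hspa1a and Hspa1b have the widest bars.

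The HSP90 co-chaperones lay lower throughout in the deficient pools. All 6 measured genes were below 0. All 6 also had both deficient pools below both wild type pools, against 18.5% of all genes and 26.5% of the brighter ones. Of the 7 members lower by limma at an unadjusted p under 0.05, 4 were among them. At that threshold 4.04% of all genes and 6.06% of the brighter ones were lower. Cdc37, which loads kinases onto HSP90, gave 9.10 and 9.67 (deficient) and 10.51 and 9.95 (wild type), differing by -0.85 (limma, SE 0.28, adjusted p = 0.761), or 1.80-fold lower, and by -0.56 without deficient pool 1. Its second, dim probe set differed by -0.020. Stip1 (HOP), which links HSP70 to HSP90, gave 8.05 and 7.99 (deficient) against 8.83 and 8.33 (wild type), differing by -0.56 (limma, SE 0.21, adjusted p = 0.785), or -0.31 without wild type pool 1.

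Cacybp, a binding partner of SIAH1 that resembles the co-chaperone SGT1, gave 11.01 and 10.93 (deficient) and 11.56 and 11.37 (wild type), differing by -0.50 (limma, SE 0.15, adjusted p = 0.761). Among members this gene had the lowest unadjusted p, and the gap between the groups was wider than that within either. Fkbp4 (FKBP52), an HSP90-bound immunophilin of steroid receptors, gave 9.92 and 9.91 (deficient) against 10.30 and 10.45 (wild type), differing by -0.46 (limma, SE 0.15, adjusted p = 0.761). Its brightest probe set has an _a_at name, and the next brightest differed by 0.067.

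Ahsa1, which activates the HSP90 ATPase, gave 10.59 and 10.50 (deficient) and 11.36 and 10.81 (wild type), differing by -0.54 (SE 0.22). It differed by -0.27 without wild type pool 1 and by -0.12 in its dimmer probe set. Chordc1, an HSP90-binding protein, gave 11.27 and 10.87 (deficient) against 11.68 and 11.39 (wild type), differing by -0.46 (SE 0.20), or -0.27 without deficient pool 2. The median of the 6 genes was -0.52, or 1.43-fold lower. It was -0.36 without wild type pool 1 and -0.71 without wild type pool 2, so the sign held with any 1 pool left out and the size followed wild type pool 1.

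The HSP70 co-chaperones differed less. Bag1, a nucleotide exchange factor that also binds BCL2, gave 10.27 and 10.30 (deficient) and 10.45 and 10.65 (wild type), differing by -0.26 (SE 0.15). St13 (HIP), which stabilises HSP70 bound to its client, gave 11.09 and 11.03 (deficient) against 11.32 and 11.38 (wild type), differing by -0.29 (SE 0.14), with wild type pool 2 the higher. Bag3, the stress-induced member of the family, overlapped between groups and differed by -0.12 (SE 0.18), or 0.070 without wild type pool 1. These 3 genes had a median of -0.26.

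Hspb1 (HSP27), a small heat shock protein that holds unfolded chains, gave 6.74 and 7.05 (deficient) and 6.66 and 6.86 (wild type). The groups overlapped, and the difference was 0.14 (SE 0.18), or -0.019 without deficient pool 2. Hsf2, a heat shock factor, gave 4.75 and 5.36 (deficient) against 5.06 and 4.90 (wild type), with overlapping groups and a difference of 0.076 (SE 0.24). The sign for Hsf2 turned to -0.22 without deficient pool 2. Both genes lay below the median over the 18193 genes.

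**Figure D4:**
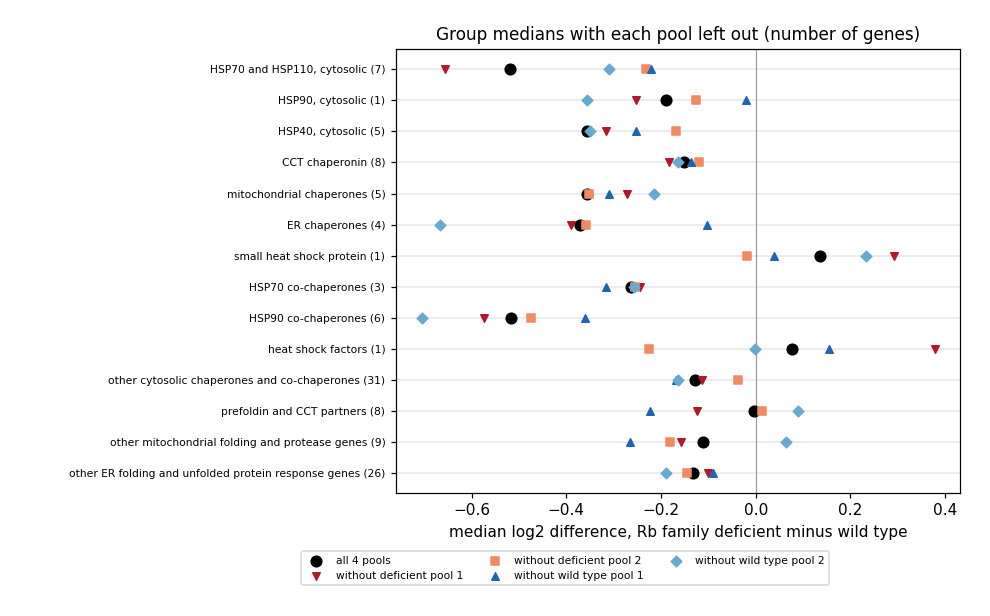
Median log2 difference (deficient minus wild type) of each group of chaperone genes and of the 4 lists of other folding genes, with all 4 pools (large black circles) and with each pool left out; numbers in brackets count the genes. The HSP90 co-chaperones stay between -0.71 and -0.36, the ER chaperones move from -0.10 to -0.67, and the single genes Hspb1 and Hsf2 cross 0.

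Members with more than 1 probe set allow a check within the gene. Of 31 such members, 13 had every probe set below 0, 2 (Dnajb1 and Hspb1) had none below 0, and 16 had both signs. Over all 111 probe sets of the members 86 were below 0 (77.5%), against 49.1% of the probe sets with 1 gene symbol. The 70 dimmer probe sets alone had 49 below 0, with a median of -0.15.

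Members with an exact 3-unit heat shock element in the promoter window had a median of -0.46 over 5 measured genes, 4 of them below 0. The 31 measured members with a window but no exact match had a median of -0.36, with 28 below 0. Hspa1a and Hspa1b are among these 31, and elements with a mismatch were not searched, so the 31 may include genes with a working element. For the 2-unit run the medians were -0.40 over 16 genes and -0.26 over 20. Hspa1a, Hspa1b and Hspb1 carry the 2-unit run and lay at opposite ends of the members' range. For the other motifs the members with a match were nearer 0. With the ER stress response element the median was -0.26 over 3 genes, against -0.36 over 33 without it. Tcp1 and Cct3, with the E2F site, were at -0.090 and -0.13, a median of -0.11, against -0.37 over 34 genes without it. These medians are given without a test.

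Lists of other folding genes, not among the members, had medians nearer 0, a difference that was not tested and did not hold for every list under each alternative. The lists were also dimmer than the members and not matched to them in brightness. Their mean log2 levels ran from 8.82 (other cytosolic, deficient pool 2) to 10.37 (prefoldin, wild type pool 2), against 10.73 to 11.24 for the members. For the other mitochondrial genes the median was -0.26 with probe sets without _s_at, _x_at or _a_at names first, as for the members (-0.26). Without wild type pool 1 it was -0.27, and that of prefoldin genes -0.22, against -0.22 for the members. Of 31 other cytosolic chaperones and co-chaperones, 21 were below 0, with a median of -0.13. At an unadjusted p under 0.05, limma gave 5 of the 31 lower, a share like the members' 17.1%, against 4.04% of all genes. It gave 0 higher, against 2.19% of all genes, and 0 passed after adjustment. The lowest p belonged to Bag2, a BAG family co-chaperone (-0.60, SE 0.15), Dnajb2, a DnaJ protein (-0.95, SE 0.24), and Hspa12b, a distant HSP70 relative (-0.64, SE 0.18), each with a limma adjusted p of 0.761. Over the 31 genes the median was -0.037 without deficient pool 2.

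Prefoldin genes, whose products hand actin and tubulin to CCT, were listed with the CCT partners Pdcl3 and Txndc9. Of these 8 genes 4 were below 0, with a median of -0.00343. By limma 1 was lower at an unadjusted p under 0.05, against 4.04% of all genes. Pfdn2 differed by -0.61 (SE 0.22), Pfdn4 by -0.45 (SE 0.27) and Vbp1 by -0.42 (SE 0.19). Of 9 other mitochondrial folding and protease genes 7 were below 0, with a median of -0.11. By limma 0 were at an unadjusted p under 0.05, against 4.04% of all genes lower and 2.19% higher. The lowest p belonged to the protease genes Clpx (-0.51, SE 0.21) and Lonp1 (-0.75, SE 0.42) and to Hscb (-0.23, SE 0.18), a DnaJ protein of iron-sulphur cluster assembly. The median of the mitochondrial list turned to 0.065 without wild type pool 2 and -0.27 without wild type pool 1, and that of prefoldin genes to 0.090 and -0.22.

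Of 26 other ER folding and unfolded protein response genes, 18 were below 0, with a median of -0.13. At an unadjusted p under 0.05, limma gave 3 lower and 1 higher, against 4.04% and 2.19% of all genes. Ern1 (IRE1), a sensor of unfolded protein in the ER, gave 10.57 and 10.88 (deficient) and 11.67 and 11.37 (wild type), differing by -0.79 (limma, SE 0.19, adjusted p = 0.761). Creld2, an ER stress-induced gene, differed by -0.48 (SE 0.15). Atf4, the transcription factor translated when eIF2 is phosphorylated, went the other way, at 11.55 and 11.68 against 11.11 and 11.20 (0.46, SE 0.15, limma adjusted p = 0.761).

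Immediate early genes, another stress-responsive set, chosen with their earlier result known, lay on the opposite side. Of 24 genes 22 were above 0, with a median of 0.84. By limma 12 were higher at an unadjusted p under 0.05, against 2.19% of all genes, with 0 passing the adjusted threshold. Egr2 differed by 2.98 (SE 0.55), Klf2 by 1.18 (SE 0.16) and Jund by 1.05 (SE 0.21). The mean log2 level of the list was 9.16 and 9.69 in the deficient pools against 8.33 and 8.69, highest in deficient pool 2. Within the deficient group Hspa1a was also higher in pool 2 (9.60) than in pool 1 (6.75), so the opposite sides are seen between the groups only.

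Markers of other cells and signs of RNA quality also moved with the pools. Of 11 measured mature neutrophil markers (14 listed), 10 were above 0 in the deficient pools, and their mean log2 level was 10.92 and 10.15 (deficient) and 9.27 and 9.86 (wild type), lowest in wild type pool 1. The deposited values hold no zero, so no marker can be called absent. For the Actb controls, the 3′ probe set exceeded the 5′ one by an amount that is larger in degraded RNA. It was 3.13 and 2.95 (deficient) and 2.32 and 2.81 (wild type), also lowest in wild type pool 1. That of Gapdh was 2.79 and 2.50 against 2.40 and 2.58. The mean log2 level of the 41 chaperone genes was 10.73 and 10.81 (deficient) against 11.24 and 11.04 (wild type), highest in wild type pool 1. Without Hspa1a and Hspa1b it was 10.86 and 10.83 against 11.22 and 11.04, so which deficient pool was lowest rested on those genes. The part of neutrophil RNA and of RNA quality in the chaperone differences was not tested.

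**Figure D5:**
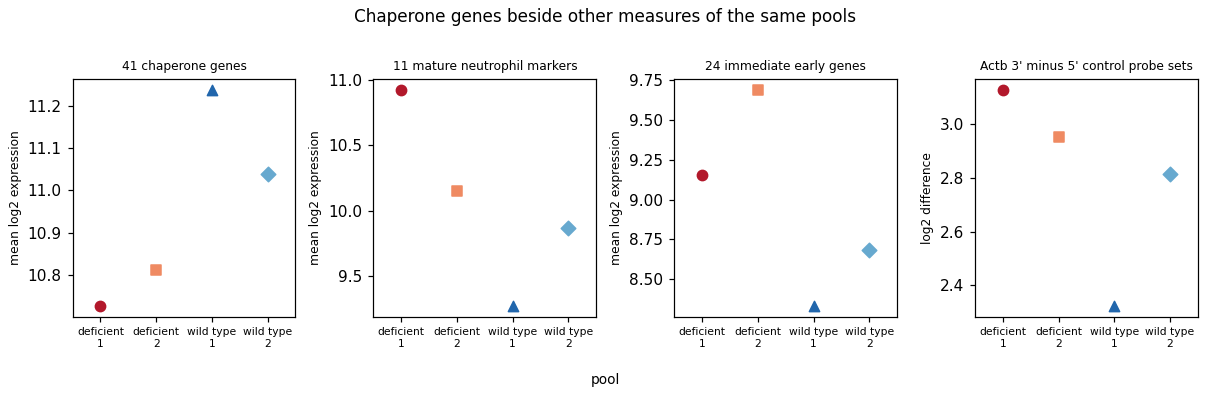
For each pool (horizontal axis), the mean log2 expression of 41 chaperone genes, 11 neutrophil markers (titled mature) and 24 immediate early genes, and the log2 difference of 3′ and 5′ Actb control probe sets. Wild type pool 1 is highest for the chaperones (11.24) and lowest in the other 3 panels; each panel has its own axis, which does not start at 0.

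Markers of other blood cell types were also set beside the members. KLS stands for a gate that includes a lineage-negative selection, which should remove mature neutrophils, macrophages, lymphocytes and erythroid cells. Of the 8 measured macrophage markers 6 were above 0 (median 0.047), of 7 B cell markers 7 (0.29), of 8 T and NK cell markers 7 (0.036), of 5 erythroid markers 4 (0.19) and of 7 megakaryocyte markers 3 (-0.018). The macrophage, B cell and T and NK cell lists were dim, with mean log2 levels of 5.45 to 6.67 over the pools, against 7.16 to 7.20 for all genes. Below 0 were 63.6% of the brighter genes but 50.8% of all genes, so dim genes more often lay above 0. The erythroid list had mean log2 levels of 6.80 to 7.61 and the megakaryocyte list 8.40 to 8.94. The sign counts were not matched to other genes in brightness, and whether more of those cells were present was not tested. The stem cell and sort gate markers had 8 of 11 below 0, with a median of -0.24. The smallest p belonged to Procr at -0.85 (SE 0.17), Mecom at -0.69 (SE 0.16) and Cd34 at -0.76 (SE 0.24). The 3 above 0 were Hoxb5 at 0.37 (SE 0.25), Slamf1 at 0.24 (SE 0.40) and Tek at 0.086 (SE 0.18). The list also holds Cd48 (-0.032, SE 0.42), which the gate selects against, so its median does not measure stem cell content. The median of this list was close to the members' median of -0.29, and its part in the chaperone differences was not tested either.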

How the data were processed

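Each deposited value is a log2 level of a probe set on 1 array. The submitters' processing notes name RMA and limma without versions. RMA forces the arrays to a shared distribution, so a change in total RNA would not show, and it compresses folds of dim probe sets. Array medians lay between 5.94 and 6.02. Of 45101 probe sets, 34945 had 1 gene symbol in the 2016 platform annotation, 932 several genes and 9160 no listed gene, with 64 array controls. Symbols were updated through RefSeq (GRCm38.p6), which matched 34741. The brightest probe set stood for each gene, and no filter on dim genes was applied. Differences (deficient minus wild type) and moderated standard errors came from limma 3.58.1 (lmFit and eBayes) in R 4.3.3 over all 18193 genes, with Benjamini-Hochberg adjustment. The script was tested on simulated data. An exact permutation test of 2 pools against 2 cannot go below a two-sided p of 0.333, so none was run. The number of arrays limits the precision. Every member with a probe set is named, and of each other list up to 3 genes with the smallest p (of marker lists, only some are printed). The members, groups and lists were chosen with earlier results of these data known. Alternatives were other probe set rules, median centring, a brightness filter, a variance trend, a replicate block and leaving out each pool.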

Additional observations from a re-analysis of the deposited data

How the results depend on the processing

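Of the 41 members, 26 kept their direction in all 10 alternatives and 0 passed the adjusted threshold in any; the smallest adjusted p of a member ran from 0.458 (without wild type pool 2) to 1.00 (without deficient pool 1). With probe sets without _s_at, _x_at or _a_at names first, Cct3 turned to 0.067, Cct8 to 0.17, Dnaja3 to 0.44 and Fkbp4 to 0.067. By limma 1 member was higher at an unadjusted p under 0.05, as were 382 of all 18193 genes. Both deficient pools lay above for 3 members and below for 24, and the share of all genes was not counted at this setting. The medians were -0.26 for HSP40 and -0.11 for CCT. With a gene's probe sets averaged, Hspa14 turned to 0.12, Hspa4l to 0.00386, Dnajb6 to -0.30 and Hsf2 to -0.038, and the medians were -0.29 for HSP70 and HSP110, -0.20 for HSP70 co-chaperones and -0.10 for other cytosolic chaperones. With arrays centred on their median, Cct4 turned to 0.023, and the medians were -0.10 for CCT, -0.21 for HSP70 co-chaperones and -0.074 for other cytosolic chaperones. The cause of these moves was not tested.

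With a pool left out, 1 to 11 members were lower at an unadjusted p under 0.05 (2.44% to 26.8%, against 1.74% to 5.95% of all genes, and below the share of all genes without wild type pool 1), and 2 to 4 had every deficient pool above, where 1 pool separates more easily than 2 and is assumed to vary like the other group. Medians ran from -0.66 to -0.22 for HSP70 and HSP110, -0.35 to -0.17 for HSP40, -0.35 to -0.21 for mitochondrial, -0.67 to -0.10 for ER chaperones, -0.32 to -0.25 for HSP70 co-chaperones, -0.71 to -0.36 for HSP90 co-chaperones, -0.17 to -0.037 for other cytosolic, -0.22 to 0.090 for prefoldin, -0.27 to 0.065 for other mitochondrial and 0.59 to 1.06 for immediate early genes. Members that turned ran from -0.25 to 0.00722 (Hspa8), -1.13 to 0.083 (Hsph1), -0.047 to 0.19 (Dnajb6), -0.069 to 0.00558 (Cct4), -0.22 to 0.081 (Cct7), -0.60 to 0.073 (Dnajc3), -0.019 to 0.29 (Hspb1), -0.32 to 0.070 (Bag3) and -0.22 to 0.38 (Hsf2).

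The title numbers are not stated to pair the pools, and the deviations of same-numbered pools correlated at -0.188 across genes. With the replicate block 4 members were lower at an unadjusted p under 0.05, against 7 without it, and with the crossed pairing, chosen after seeing the data, 9. All genes moved alike, with 457 lower with the block, 735 without it and 1151 with the crossed pairing.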
